A study of Mus musculus with 18 samples.

Results

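The AtrxΔE2 genotype effect described here was measured on the second of 2 array series of a study of mouse hippocampus. It compares 4 AtrxΔE2 mice (labelled numbers 4 to 7) with 4 wild-type mice (labelled numbers 4 to 7), which are 8 of the 18 arrays in the study. The arrays were chosen by their genotype labels and by the identifier stem that the arrays of the second series share. The AtrxΔE2 allele is named for a deletion in the X-linked gene Atrx, and neither group had received 5-aminolevulinic acid (5-ALA). The other arrays held 3 wild-type and 3 AtrxΔE2 mice of the first series and 4 AtrxΔE2 mice given 5-ALA. The labels give as many mice as arrays, so each array was taken as 1 mouse. Strain, sex and age at sampling are not given in the sources used here. The p-values measure the spread between these arrays alone.

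ATRX is a SWI/SNF-type chromatin remodeller that works with the histone chaperone DAXX to deposit the histone variant H3.3 at heterochromatin, telomeres and other repeats. Mutations of the human gene cause an X-linked syndrome with intellectual disability. In mouse brain, the Xlr genes, an X-linked family of repeated copies, are known for higher expression where ATRX is impaired. The hippocampus holds CA1 and CA3 pyramidal neurons and dentate granule cells. It borders the thalamus and septum and lies beside the choroid plexus of the ventricles.

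Each array carried 23473 probes, 16631 of them with a gene name, and was read in 1 colour, so a value is a level of labelled RNA and not a count. Levels below are log2 intensities after background correction and quantile normalization over the 8 arrays, and a log2 change is always the AtrxΔE2 mean minus the wild-type mean. Tests covered the 21466 probes whose signal passed the blank spots' 95th percentile on 4 or more of the 8 arrays, and 2007 dim probes were put aside. The number of arrays limits the precision. Between 87.2% and 92.8% of probes exceeded that percentile on an array. Blank spots averaged 55.3 to 56.6 intensity units on the wild-type arrays and 59.3 to 61.6 on the AtrxΔE2 arrays, and the groups did not overlap. The array identifiers ran through the wild-type mice first and then through the AtrxΔE2 mice, and the slope relating the first 2 scanner gains was 0.465 to 0.466 on wild-type arrays and 0.477 to 0.485 on AtrxΔE2 arrays. Genotype and order of the arrays therefore cannot be told apart. Levels correlated across probes at 0.990 or more between any pair of the 8 arrays. AtrxΔE2 arrays 4 and 5 deviated from their group mean together (correlation of deviations 0.184), as did arrays 6 and 7 (0.247), and across these pairs the correlation was between -0.686 and -0.536.

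Hippocampal RNA of AtrxΔE2 mice differed from that of wild-type mice at 546 of 21466 probes (2.54%; limma, adjusted p under 0.05 by the Benjamini-Hochberg method across the whole table), which is what "called" means throughout. Of these, 265 (1.23% of the tested probes) were higher and 281 (1.31%) were lower in AtrxΔE2 mice. A gene name was available for 424. The largest called changes of named genes were falls of Slc17a6 and Calb2, markers of thalamus and septum, of the astrocyte gene Glul and of the synapse organiser gene Cbln1, and rises of the actin regulator Cap1 and the X-linked gene Xlr3b. Most called changes were small on the log2 scale used here, with a median size of 0.263, and 71 exceeded 0.5 and 11 exceeded 1. The background offset of 50 compresses changes of dim probes on this scale, so these sizes are not fold changes of RNA. The median change of all tested probes was 0.00263. All 4 AtrxΔE2 arrays lay above all 4 wild-type arrays at 6.49% of the tested probes and below them at 5.94%.

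**Figure D1:**
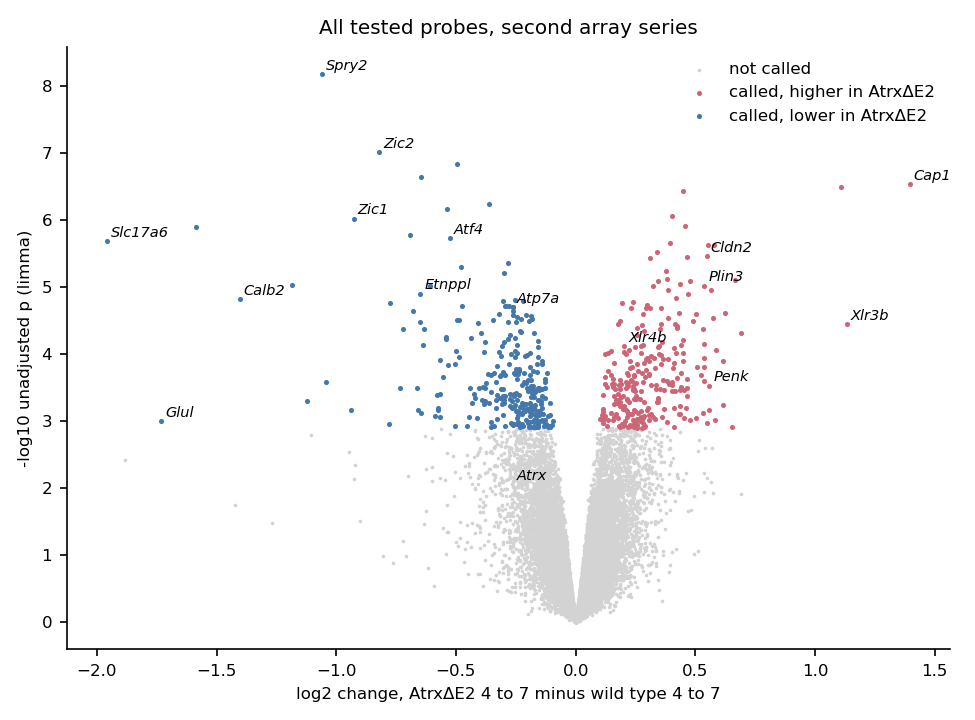
Change of every tested probe (x axis, log2, AtrxΔE2 arrays 4 to 7 minus wild-type arrays 4 to 7) against its unadjusted limma p (y axis, -log10); coloured points are the 265 probes called higher and the 281 called lower. Spry2 has the smallest p, Slc17a6 the largest labelled fall, and Cap1 and Xlr3b the largest labelled rises.

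The number of calls moved with the arrays, the scaling and the model. It was 282 with pairs of neighbouring arrays (4 and 5, 6 and 7 of each genotype) as a random block and 0 with each pair averaged. The replicate number as a block gave 64, the blank spot level as a covariate 11 and median scaling 2550. Leaving out wild-type array 4, 5, 6 or 7 gave 227, 215, 357 and 237 calls, and leaving out AtrxΔE2 array 4, 5, 6 or 7 gave 273, 241, 847 and 271. The authors' normalized table, which sets every array's median to 25, gave 114 probes higher and 591 lower, with the median of all probes at -0.0738.

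Atrx itself was lower on all AtrxΔE2 arrays that measured it, but the test did not call it. The Atrx probe measured 6.55, 6.32, 6.46 and 6.49 on wild-type arrays 4 to 7, and 6.04, 6.28 and 6.26 on AtrxΔE2 arrays 4 to 6, where its spot on array 7 was unusable and the fit dropped it. The groups did not overlap, and the gap between the lowest wild-type and the highest AtrxΔE2 value was small. The log2 change was -0.26 (SE 0.0737, adjusted p = 0.115, limma). In the authors' deposited table the AtrxΔE2 mean over 3 arrays was 0.555 times the wild-type mean. Under median scaling (adjusted p = 0.0453) and on the authors' table (adjusted p = 0.0447) the fall was called. The position of this probe relative to the deletion is not given in the sources used here, so its level does not check the genotype.

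Atp7a, an X-linked copper transporter gene beside Atrx, was the 1 gene called among the 20 measured named genes nearest to Atrx in RefSeq order. It measured 7.33, 7.22, 7.24 and 7.26 in wild-type mice and 7.04, 6.98, 6.96 and 7.00 in AtrxΔE2 mice. The AtrxΔE2 arrays all lay below the wild-type arrays, with a log2 change of -0.26 (SE 0.0298, adjusted p = 0.00764). The 20 neighbours had a median change of -0.01, and their changes ran from -0.26 to 0.10. Of 519 tested named probes on the X chromosome, 20 (3.85%) were called, beside 2.73% of all named probes.

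The Xlr family is a set of near-identical X-linked copies whose proteins resemble a synaptonemal complex component. Of 11 listed family genes, 3 had a tested probe, and 2 of them were called higher, beside 1.23% of all tested probes. Xlr3b measured 6.33, 6.31, 6.74 and 6.80 in wild-type mice and 7.67, 7.92, 7.47 and 7.65 in AtrxΔE2 mice, so every AtrxΔE2 array lay above every wild-type array. Its log2 change was 1.13 (SE 0.139, adjusted p = 0.00878), and its mean in the authors' deposited table was 3.48 times that of wild-type mice. Xlr4b measured 6.12, 6.09, 6.14 and 6.14 in wild-type mice and 6.29, 6.30, 6.32 and 6.39 in AtrxΔE2 mice. These groups did not overlap either, and the log2 change was 0.20 (SE 0.0276, adjusted p = 0.0134), with a ratio of 1.52 in the authors' deposited table. Xlr5d was near the blank spots, above their percentile on 4 wild-type arrays and on 1 AtrxΔE2 array, with a log2 change of -0.03 (adjusted p = 0.440) and overlapping groups. Probes of near-identical copies may bind RNA of several members, so the member that carried the rise is uncertain.

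The RefSeq promoters (GRCm38.p6, windows of 300 bases around the gene start) of the Xlr genes that rose are shown because both genes moved together and lie on the same strand of the X chromosome. Capitals mark the longest run of bases that both promoters share, found after the sequences were read. Xlr3b lies at chrX:73191929-73192228 and Xlr4b at chrX:73214083-73214382, both on the plus strand.
Xlr3b: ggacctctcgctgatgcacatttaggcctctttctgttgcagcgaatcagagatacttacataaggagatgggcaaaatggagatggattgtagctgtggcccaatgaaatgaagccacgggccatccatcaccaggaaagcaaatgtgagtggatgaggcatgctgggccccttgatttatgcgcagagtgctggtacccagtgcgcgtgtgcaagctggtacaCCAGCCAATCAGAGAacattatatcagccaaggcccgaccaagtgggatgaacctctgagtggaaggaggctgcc
Xlr4b: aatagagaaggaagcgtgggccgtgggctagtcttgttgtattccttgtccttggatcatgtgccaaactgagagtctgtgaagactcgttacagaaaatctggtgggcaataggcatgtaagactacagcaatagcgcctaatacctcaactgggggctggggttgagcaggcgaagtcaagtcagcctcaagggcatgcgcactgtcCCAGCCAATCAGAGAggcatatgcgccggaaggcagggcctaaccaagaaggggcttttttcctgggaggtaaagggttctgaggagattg
The shared run CCAGCCAATCAGAGA is 15 bases long and occupies bases 226 to 240 of the Xlr3b window and bases 210 to 224 of the Xlr4b window. On either strand, it occurs in 9 of 32851 RefSeq promoters of this length (0.0274%), of which Xlr3a, Xlr3b, Xlr4a, Xlr4b and Xlr4c are family members. It contains the letters CCAAT, which 37.4% of these promoters hold on either strand. The match describes letters and not a bound site. Global alignment gave 53.8% identity between the promoters of Xlr3b and Xlr4b, 89.4% between Xlr3b and Xlr3c, 76.8% between Xlr3b and Xlr3a, and 95.7% between Xlr4b and Xlr4a.

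Beside Xlr3b, the largest called rises of named genes were those of Cap1, Guca1a and Atp8a1. Cap1, which recycles actin monomers, measured 7.72, 7.42, 7.55 and 7.56 in wild-type mice and 8.81, 8.88, 9.20 and 8.94 in AtrxΔE2 mice. The groups lay more than 1 log2 unit apart, with a log2 change of 1.39 (SE 0.0906, adjusted p = 0.00115) and a ratio of 3.10 in the authors' deposited table. Atp8a1, a flippase that moves phosphatidylserine between membrane leaflets, measured 8.01 to 8.14 in wild-type mice and 8.54 to 8.83 in AtrxΔE2 mice, a log2 change of 0.66 (SE 0.0665, adjusted p = 0.00571). Guca1a, a calcium-sensing activator of guanylate cyclase known from the retina, rose by 0.69 (SE 0.0884, adjusted p = 0.0105), from 10.06 to 10.46 in wild-type mice to 10.85 to 11.09 in AtrxΔE2 mice. The groups did not overlap in any of these genes.

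The other genes in this set of 12 rose by 0.56 to 0.65, again with no overlap of the groups. Picking genes by large called changes favours groups without overlap, which 6.49% of all tested probes showed with AtrxΔE2 higher. They were Rdh5, a retinol dehydrogenase (0.65, adjusted p = 0.0495), the F-box gene Fbxo39 (0.62, 0.00837), the calmodulin-like gene Calml4 (0.62, 0.0169), the actin-nucleating formin Inf2 (0.62, 0.0340), the neuronal calcium sensor hippocalcin, Hpca (0.58, 0.0446), the secreted factor C1qtnf12 (0.58, 0.00273), the radial spoke gene of motile cilia Rsph9 (0.57, 0.00858) and klotho, Kl (0.56, 0.00625). Rdh5 was no longer called without wild-type array 4, 5 or 7 or AtrxΔE2 array 4, 5 or 7 (adjusted p up to 0.118), nor Inf2 without wild-type array 4, 5 or 6 or AtrxΔE2 array 4, 5 or 7 (up to 0.0907). Calml4 was not called without AtrxΔE2 array 5 (0.0521). Calml4 and Kl also stand in the list of choroid plexus and ependymal genes described below.

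The largest called fall was that of Slc17a6, the vesicular glutamate transporter used by thalamic and other subcortical neurons. It measured 9.17, 9.20, 8.99 and 8.87 in wild-type mice and 7.28, 7.49, 6.77 and 6.85 in AtrxΔE2 mice. The log2 change was -1.96 (SE 0.164, adjusted p = 0.00273), and the AtrxΔE2 mean in the authors' deposited table was 0.173 times the wild-type mean. AtrxΔE2 arrays 6 and 7 were lower than arrays 4 and 5, and all 4 lay far below the wild-type arrays.

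Glul, the glutamine synthetase of astrocytes, measured 10.88, 10.71, 10.12 and 10.18 in wild-type mice and 8.16, 8.10, 9.26 and 9.44 in AtrxΔE2 mice. Here AtrxΔE2 arrays 4 and 5 were the lowest, arrays 6 and 7 lay between them and the wild type, and the groups did not overlap. Its log2 change of -1.73 (SE 0.346, adjusted p = 0.0454) was called on all 8 arrays but not without any 1 wild-type array or without AtrxΔE2 array 4 or 5 (adjusted p up to 0.115). Without the pair of AtrxΔE2 arrays 4 and 5 the change was -1.12.

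Spry2, an inhibitor of receptor tyrosine kinase signalling, had the smallest p of all tested probes. It measured 6.99, 6.96, 7.09 and 7.08 in wild-type mice and 5.94, 5.91, 6.05 and 5.98 in AtrxΔE2 mice, so replicates differed by far less than the groups. Its log2 change was -1.06 (SE 0.0428, adjusted p = 0.000145), with a ratio of 0.121 in the authors' deposited table. Cbln1, a secreted organiser of synapses, fell by 1.18 on the log2 scale (SE 0.121, adjusted p = 0.0058), from 7.64 to 7.93 in wild-type mice to 6.35 to 6.88 in AtrxΔE2 mice.

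Nell1, which encodes a secreted protein, fell by 0.72 (SE 0.0904, adjusted p = 0.00966), with wild-type values of 8.26 to 8.59 and AtrxΔE2 values of 7.64 to 7.85. The matricellular gene Ccn3 changed by -0.78 (adjusted p = 0.0471) and Ccdc136 by -0.73 (adjusted p = 0.0257), and in both genes every AtrxΔE2 array lay below every wild-type array. Ccn3 lost its call without any 1 of the 8 arrays (adjusted p up to 0.116), and Ccdc136 without wild-type array 4, 5 or 7 or AtrxΔE2 array 5 or 7 (up to 0.0754).

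**Figure D2:**
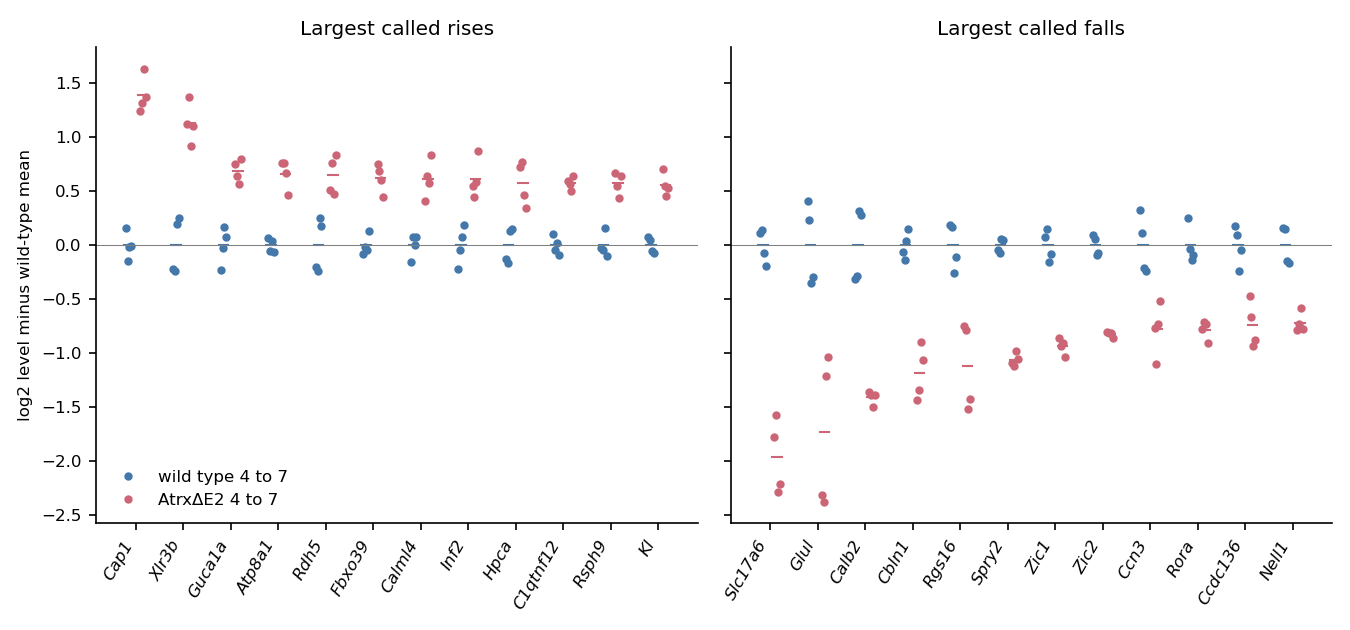
Level of the 12 largest called rises (left) and falls (right) on each array, as log2 level minus the gene's wild-type mean; blue points are wild-type arrays 4 to 7, red points AtrxΔE2 arrays 4 to 7, in array order, and short bars are group means. The genes were picked for large called changes, which favours groups without overlap, and in every gene shown the red and blue points do not overlap. Slc17a6, Glul and Rgs16 separate AtrxΔE2 arrays 4 and 5 from arrays 6 and 7.

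Genes were then read in 36 lists, described by how many members were called and by their median change. All but the list of genes nearest Atrx were written by hand, with earlier results of these data known. Counts set beside the share of all probes therefore describe the lists and do not test them. The lists hold markers of hippocampal cells, of neighbouring tissue and of pathways. Most members of most lists were not called.

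Of 23 thalamic and septal markers, 21 were on the array and 20 were tested, and 8 of these fell and 0 rose, beside 1.31% of all probes called lower. The median change of the 20 was -0.21, and 5 of them had a change above 0. Zic1, a zinc finger factor of the septum and thalamus, measured 8.86, 8.93, 8.63 and 8.70 in wild-type mice and 7.92, 7.85, 7.88 and 7.75 in AtrxΔE2 mice, a log2 change of -0.93 (SE 0.0703, adjusted p = 0.00187). Its relative Zic2 measured 7.05 to 7.24 in wild-type mice and 6.28 to 6.34 in AtrxΔE2 mice, a change of -0.82 (SE 0.0464, adjusted p = 0.00104). Neither gene's groups overlapped, and AtrxΔE2 values were tight.

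Calb2, which encodes the calcium buffer calretinin, measured 7.72, 7.75, 8.35 and 8.32 in wild-type mice and 6.68, 6.65, 6.54 and 6.65 in AtrxΔE2 mice. Its wild-type arrays fell into a lower and a higher pair, both above every AtrxΔE2 array, and the log2 change was -1.40 (SE 0.153, adjusted p = 0.00764). The nuclear receptor gene Rora fell by 0.78 (SE 0.0861, adjusted p = 0.00764), with wild-type values of 8.14 to 8.53 and AtrxΔE2 values of 7.37 to 7.56. Rgs16, a regulator of G protein signalling, changed by -1.12 (adjusted p = 0.0314), a call lost without wild-type array 4, 5 or 7 or AtrxΔE2 array 7 (up to 0.0878). Slc17a6, described above, is the remaining large fall of the list, and the other called members fell by 0.17 to 0.24.

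The mean level of the 20 thalamic and septal markers was 7.28 to 7.36 on wild-type arrays, 6.92 and 6.94 on AtrxΔE2 arrays 4 and 5, and 6.65 and 6.64 on AtrxΔE2 arrays 6 and 7. The groups did not overlap, and the AtrxΔE2 pairs differed from each other. Between 5 and 12 markers were called lower when a pair of arrays with neighbouring identifiers was left out, 7 with these pairs as a random block and 0 with each pair averaged. In RNA from whole tissue, fewer cells of a type and less RNA per cell cannot be told apart. The part of neighbouring tissue in the changes of other genes was not tested.

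All 22 choroid plexus and ependymal genes on the array were tested, and 11 of them rose and 0 fell, beside 1.23% of all probes called higher, and 21 of 22 had a change above 0. The median change was 0.29, with a range from 0.00 to 0.62. Among the 11 not called, and named here after their values were seen, were the transthyretin gene Ttr (0.06, adjusted p = 0.588) and the folate receptor gene Folr1 (0.00, adjusted p = 0.992), both abundant in choroid plexus. Cldn2, a tight junction claudin of the choroid plexus, measured 7.22, 7.27, 7.36 and 7.15 in wild-type mice and 7.83, 7.81, 7.71 and 7.84 in AtrxΔE2 mice, with no overlap and a log2 change of 0.55 (SE 0.0489, adjusted p = 0.00344). Kl measured 8.48, 8.45, 8.35 and 8.33 in wild-type mice and 9.11, 8.95, 8.86 and 8.93 in AtrxΔE2 mice, also with no overlap.

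The chloride channel family gene Clic6 rose by 0.42 (SE 0.0457, adjusted p = 0.00764) and the lipopolysaccharide-binding protein gene Lbp by 0.49 (SE 0.0590, adjusted p = 0.00858). Enpp2, the lysophospholipase autotaxin, was higher by 0.29 (adjusted p = 0.0162), and Igfbp2, which binds insulin-like growth factors, by 0.34 (adjusted p = 0.0324). Enpp2 was not called without wild-type array 5 or 7 (up to 0.0516), nor Igfbp2 without wild-type array 4, 6 or 7 or AtrxΔE2 array 4, 5 or 7 (up to 0.0887). Enpp2 also stands in the myelin list and Igfbp2 in the meningeal list. The mean level of the 22 genes was 8.34 to 8.42 on wild-type and 8.66 to 8.73 on AtrxΔE2 arrays, without overlap. Leaving out a pair of neighbouring arrays gave between 1 and 14 genes called higher, with 1 called lower without AtrxΔE2 arrays 6 and 7, the random block gave 9 and averaged pairs 0, and the part of choroid plexus tissue in other rises was not tested.

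Of 15 tested striatal markers, 6 were called higher and 0 lower, beside 1.23% of all probes called higher, with a median change of 0.27 and 13 of 15 above 0. Rasd2, a small GTPase of striatal neurons, measured 7.70, 7.63, 7.62 and 7.67 in wild-type mice and 7.94, 7.93, 8.02 and 7.98 in AtrxΔE2 mice, a change of 0.31 (SE 0.0281, adjusted p = 0.00344). Adcy5, the main striatal adenylyl cyclase, measured 7.82 to 8.06 in wild-type mice and 8.29 to 8.41 in AtrxΔE2 mice, a change of 0.41 (SE 0.0508, adjusted p = 0.00878). Neither gene's groups overlapped.

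Penk, the precursor of enkephalins, measured 12.20, 12.06, 11.97 and 12.34 in wild-type mice and 12.73, 12.63, 12.87 and 12.56 in AtrxΔE2 mice, a change of 0.56 (SE 0.0923, adjusted p = 0.0252). The orphan receptor gene Gpr6 changed by 0.30 (adjusted p = 0.0360). Penk was not called without wild-type array 4, 5 or 6 or AtrxΔE2 array 4 or 5 (up to 0.0740), nor Gpr6 without any 1 wild-type array or AtrxΔE2 array 5 or 7 (up to 0.0960). The mean level of the list was 7.87 to 7.94 on wild-type and 8.08 to 8.29 on AtrxΔE2 arrays. Between 1 and 9 members were called without a pair of neighbouring arrays, 2 with the random block and 0 with averaged pairs, and the part of striatal tissue in other rises was not tested.

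Genes that define hippocampal neurons were detected, as the labelled tissue has them, and 1 was called. Of 18 tested, Hpca was the 1 called, higher, beside 1.23% of all probes called higher. The list median was 0.15, with 14 of 18 above 0. At an unadjusted p under 0.05 (limma) 8 were higher and 0 lower, beside 9.98% and 9.61% of all tested probes. Hpca measured 13.10, 13.06, 13.36 and 13.38 in wild-type mice and had a mean of 13.80 (SD 0.207, n = 4) in AtrxΔE2 mice, with 13.95, 13.69 and 13.57 on arrays 4, 6 and 7. AtrxΔE2 array 5 was the highest of all, and the groups did not overlap. Its call did not hold without any 1 wild-type array or without AtrxΔE2 array 4 or 5 (adjusted p up to 0.110). The mean level of the list was 8.76 to 8.82 on wild-type arrays, 9.05 and 9.07 on AtrxΔE2 arrays 4 and 5, and 8.89 and 8.85 on AtrxΔE2 arrays 6 and 7.

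CA1 pyramidal markers (12 tested) had 1 called higher and 2 lower, beside 1.23% and 1.31% of all probes, with a median of 0.02. Iyd, which recovers iodide from iodotyrosines, measured 6.12 to 6.22 in wild-type mice and 5.85 to 5.93 in AtrxΔE2 mice, a change of -0.30 (SE 0.0289, adjusted p = 0.00497). Lefty1, a Nodal antagonist, changed by 0.36 (adjusted p = 0.0418) and Ccn3 moved the other way. Dentate granule and CA3 markers (17 tested) had 1 called lower, beside 1.31% of all probes, and a median of 0.01. The called gene was the peptide gene Grp (-0.58, adjusted p = 0.0372). Lefty1 was not called without wild-type array 4, 5 or 7 or AtrxΔE2 array 4, 5 or 7 (up to 0.104), nor Grp without any array but wild-type array 6 (up to 0.0946). The dentate and CA3 list averaged 7.31 to 7.40 on wild-type arrays, 7.40 and 7.43 on AtrxΔE2 arrays 4 and 5, and 7.15 and 7.13 on arrays 6 and 7.

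Few genes of the synaptic lists were called, and 2.54% of all tested probes were called. No postsynaptic scaffold gene of 19 and no glutamate receptor subunit of 19 was called, with 5 and 4 at an unadjusted p under 0.05 (19.6% of all tested probes) and medians of 0.08 and -0.01. Of the postsynaptic genes 16 of 19 had a change above 0, and the list averaged 7.58 to 7.62 on wild-type and 7.67 to 7.71 on AtrxΔE2 arrays, without overlap. The presynaptic list averaged 8.95 to 9.10 on wild-type and 8.88 to 8.90 on AtrxΔE2 arrays, also without overlap. That mean includes Slc17a6, with its change of -1.96. The median of the presynaptic list was -0.03, and 3 genes were higher and 3 lower at an unadjusted p under 0.05 (limma). Of 22 presynaptic genes, Slc17a6 fell and Unc13a, which primes vesicles for release, rose by 0.22 (adjusted p = 0.0242). Camk2a, the alpha subunit of calcium/calmodulin kinase II, measured 8.90, 8.56, 8.58 and 8.64 in wild-type mice and 8.87, 8.93, 8.77 and 8.72 in AtrxΔE2 mice. Its groups overlapped, with a change of 0.15 (SE 0.0810, adjusted p = 0.352). Of the 13 CaM kinase genes, 1 was called, the delta subunit Camk2d, at -0.66 (SE 0.111, adjusted p = 0.0257), with wild-type values of 7.26 to 7.77 and AtrxΔE2 values of 6.66 to 6.89. Camk2d was not called without wild-type array 5 or 7 or AtrxΔE2 array 4, 5 or 7, and Unc13a not without wild-type array 5, 6 or 7 or AtrxΔE2 array 5 or 7 (up to 0.0754 and 0.0736).

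Of 22 GABAergic interneuron markers, 1 was called higher and 2 lower, beside 1.23% and 1.31% of all probes. The list median was 0.12, with 16 of 22 above 0. At an unadjusted p under 0.05 (limma) 7 were higher and 4 lower, beside 9.98% and 9.61% of all tested probes. Slc32a1, the vesicular GABA transporter, changed by 0.40 (adjusted p = 0.0249), Calb2 fell, and Nxph1, a ligand of neurexins, changed by -0.36 (adjusted p = 0.0329). Among 10 GABA-A receptor subunits, Gabrg1 was lower by a change of -0.44 (adjusted p = 0.0422), and Gabra4 had a change of -0.41 that was not called (adjusted p = 0.0580) although its groups did not overlap. Single arrays decided these calls: Slc32a1 was not called without wild-type array 4, 5 or 7 or AtrxΔE2 array 5 (up to 0.0740), Nxph1 not without any 1 wild-type array or AtrxΔE2 array 4 or 5 (up to 0.0880), and Gabrg1 not without any array but AtrxΔE2 array 6 (up to 0.111). Of 38 potassium channel genes, 1 was called, Kcnq5, beside 2.54% of all probes. Its change was 0.27 (adjusted p = 0.0311), a call lost without any 1 wild-type array or AtrxΔE2 array 5 or 7 (up to 0.0853).

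Unfolded protein and heat shock genes had 5 of 28 called lower and 0 higher, beside 1.31% of all probes called lower, with a median of -0.09. Atf4, the transcription factor of the integrated stress response, measured 10.43, 10.39, 10.51 and 10.38 in wild-type mice and 9.88, 9.81, 9.95 and 9.97 in AtrxΔE2 mice. All AtrxΔE2 arrays lay below all wild-type arrays, and the change was -0.53 (SE 0.0434, adjusted p = 0.00264). Dnaja1, a co-chaperone of Hsp70, measured 10.94, 11.07, 10.90 and 10.79 in wild-type mice and 10.33, 10.36, 10.55 and 10.31 in AtrxΔE2 mice, a change of -0.54 (SE 0.0710, adjusted p = 0.0117), again without overlap.

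The chaperone gene Hsp90aa1 changed by -0.18 (adjusted p = 0.0255) and Chac1, a glutathione-degrading enzyme gene under Atf4 control, by -0.27 (adjusted p = 0.0350). Hsp90aa1 was not called without wild-type array 4, 5 or 6 or AtrxΔE2 array 5 or 7 (up to 0.0754), nor under median scaling, cyclic loess or the authors' table. Chac1 was not called without any 1 wild-type array or AtrxΔE2 array 4 or 5 (up to 0.0930). The list averaged 9.36 to 9.41 on wild-type and 9.25 to 9.29 on AtrxΔE2 arrays. Its median moved to -0.03 under median scaling, and 1 to 5 members were called without a pair of neighbouring arrays, 3 with the random block and 0 with averaged pairs.

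Astrocyte genes had 3 of 22 called lower, beside 1.31% of all probes, with a median of -0.10 and 6 above 0. Besides Glul these were Etnppl, a phospho-lyase of ethanolamine phosphate, and S100b, a calcium-binding protein of astrocytes. Etnppl measured 7.70, 7.81, 7.67 and 7.58 in wild-type mice and 7.00, 7.22, 7.01 and 6.94 in AtrxΔE2 mice, a change of -0.65 (SE 0.0691, adjusted p = 0.00677) with no overlap. S100b changed by -0.33 (adjusted p = 0.0360) and lost its call without any array but wild-type array 6 (up to 0.0941). The list averaged 8.86 to 8.87 on wild-type and 8.63 to 8.70 on AtrxΔE2 arrays.

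Lipid droplet and aminophospholipid genes had 3 of 19 called higher and 1 lower, beside 1.23% and 1.31% of all probes. Plin3, a coat protein of lipid droplets, measured 8.47, 8.36, 8.37 and 8.50 in wild-type mice and 8.91, 9.02, 8.85 and 9.07 in AtrxΔE2 mice, a change of 0.54 (SE 0.0551, adjusted p = 0.00580). Mgll, the lipase that degrades the endocannabinoid 2-arachidonoylglycerol, measured 10.02 to 10.05 in wild-type mice and 10.30 to 10.44 in AtrxΔE2 mice, a change of 0.34 (SE 0.0299, adjusted p = 0.00320). Pisd, the mitochondrial phosphatidylserine decarboxylase, changed by 0.35 (adjusted p = 0.0178), and without wild-type array 5 or AtrxΔE2 array 5 its adjusted p reached 0.0549. Etnppl is the lower member. None of these genes had overlapping groups.

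Myelin and oligodendrocyte genes had 2 of 23 called higher and 1 lower, beside 1.23% and 1.31% of all probes, with a median of -0.10. Olig2, a transcription factor of the oligodendrocyte lineage, measured 7.78, 7.73, 7.64 and 7.77 in wild-type mice and 7.46, 7.37, 7.49 and 7.41 in AtrxΔE2 mice, a change of -0.30 (SE 0.0399, adjusted p = 0.0126). The gap junction gene Gjb1 changed by 0.24 (adjusted p = 0.0236), a call lost without wild-type array 4, 5 or 7 or AtrxΔE2 array 4, 5 or 7 (up to 0.0703), and Enpp2 is given above. Olig2 groups did not overlap.

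Partners of ATRX and heterochromatin genes gave no call among 31 tested, with 1 higher and 5 lower at an unadjusted p under 0.05, beside 9.98% and 9.61% of all tested probes, and a median of -0.03. The cohesin subunit gene Smc3 had a change of -0.12 (adjusted p = 0.0810) and Cbx3, a heterochromatin protein 1 gene, of -0.17 (adjusted p = 0.122) at its brighter probe and 0.04 (adjusted p = 0.753) at its other. Among 26 imprinted genes, 1 was called, beside 2.54% of all probes. It was Impact, an inhibitor of the kinase Gcn2, at -0.42 (adjusted p = 0.0281). That call was lost without wild-type array 4, 5 or 7 or AtrxΔE2 array 5 (up to 0.0816). Immediate early genes, which follow neuronal activity, had 0 of 22 called and 5 at an unadjusted p under 0.05, near the 19.6% of all tested probes. Egr1 had a change of 0.54 (adjusted p = 0.0959) and Fos of -0.40 (adjusted p = 0.146), so these members of the list differed in sign.

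Single members were called in the remaining lists with a call, beside 2.54% of all probes. Gclm, a subunit of the enzyme that starts glutathione synthesis, changed by -0.17 (adjusted p = 0.0369) among 24 glutathione genes, and Sdhd, of respiratory complex II, by 0.28 (adjusted p = 0.0241) among 71 respiratory genes. Gclm was not called without any array but AtrxΔE2 array 6 (up to 0.0919), nor Sdhd without wild-type array 5 or 6 or AtrxΔE2 array 4 (up to 0.0633). No gene was called among 55 cytosolic ribosomal protein genes, 29 proteasome subunit genes, 17 cholesterol synthesis genes, 18 haem biosynthesis genes or 20 iron and haem breakdown genes (limma), where 7, 4, 2, 5 and 5 had an unadjusted p under 0.05, a level that 19.6% of all tested probes reached. The same held for 22 microglial genes, 25 endothelial and pericyte genes, 23 interferon genes, 19 glucocorticoid response genes and 9 G-quadruplex helicases, with 3, 7, 9, 7 and 1 at that level, beside the same 19.6%. At that level the interferon genes had 1 higher and 8 lower, and the glucocorticoid response genes 6 higher and 1 lower. Of all tested probes, 9.98% were higher and 9.61% lower at that level. Of 3 haemoglobin and red cell genes on the array, 2 were tested and 0 called.

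**Figure D3:**
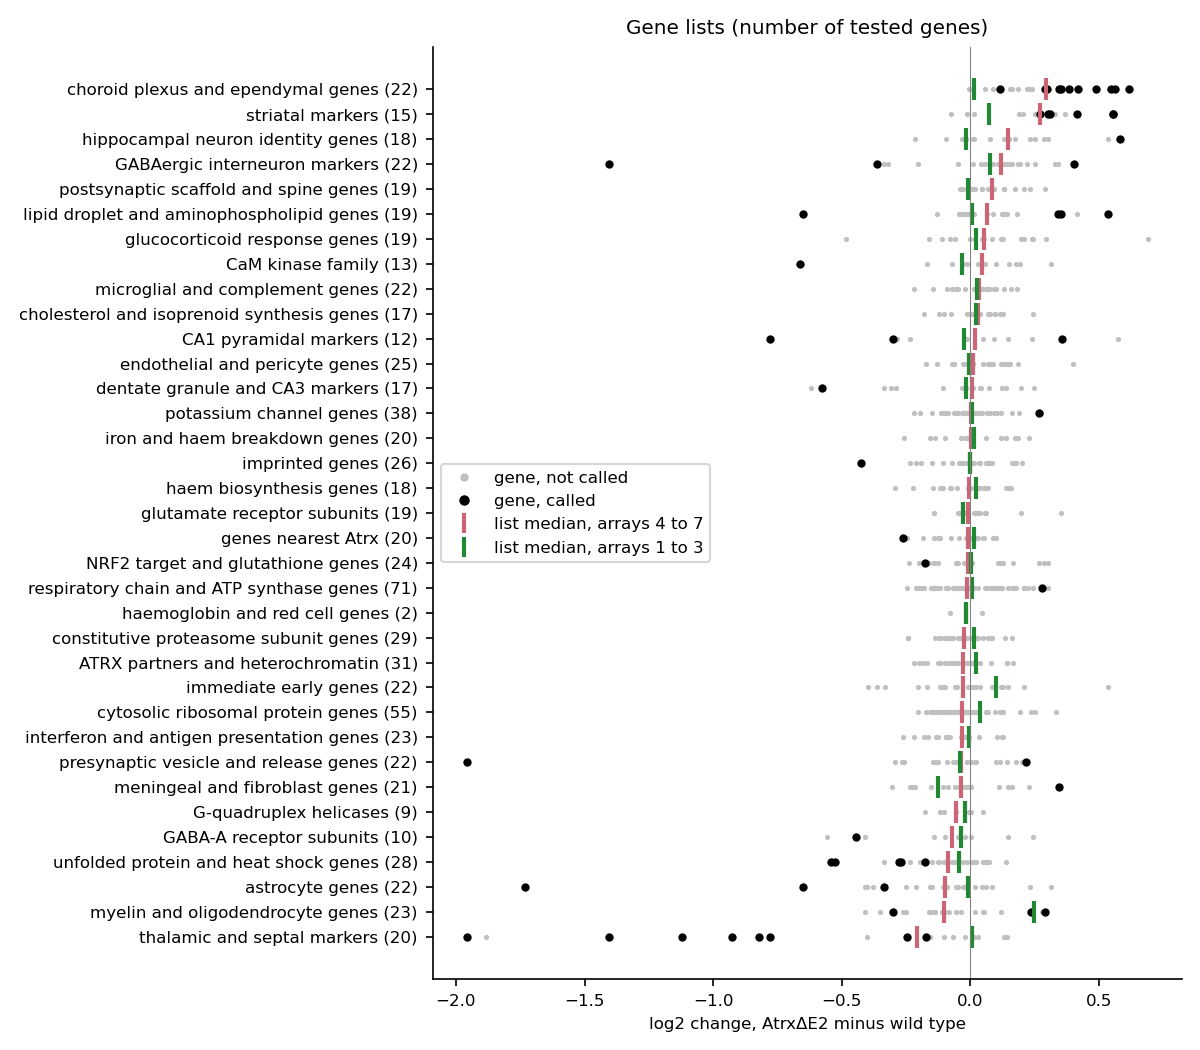
Log2 change of every tested gene of each list (points; black are called at adjusted p under 0.05, grey are not), with red ticks for the list median on arrays 4 to 7 and green ticks for the median on arrays 1 to 3; the Xlr family is left out, and the number of tested genes stands in brackets. Choroid plexus and striatal medians (0.29 and 0.27) lie to the right of 0 and the thalamic and septal median (-0.21) to the left, and the first series medians of these lists are 0.02, 0.07 and 0.01.

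**Figure D4:**
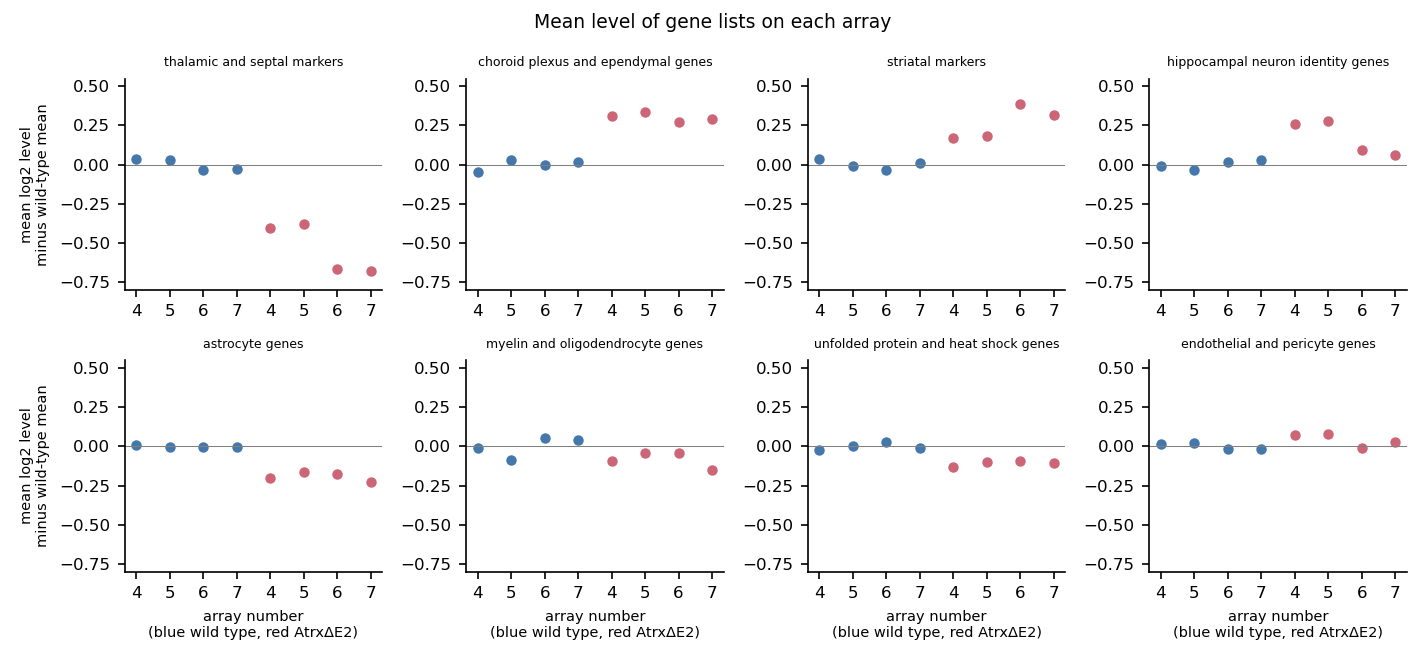
Mean log2 level of 8 gene lists on each array, minus the list's wild-type mean; blue points are wild-type arrays 4 to 7 and red points AtrxΔE2 arrays 4 to 7. Thalamic and septal markers lie lowest on AtrxΔE2 arrays 6 and 7, choroid plexus genes lie above the wild type on all 4 AtrxΔE2 arrays, and endothelial genes overlap.

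The first array series measured the same genotypes in 3 wild-type and 3 AtrxΔE2 mice, and the difference between the series was tested as an interaction over 14 arrays. The change of 24 of 22515 probes (0.107%) differed between the series, 14 more positive and 10 more negative in the second. In that fit 690 probes (3.06%) were called in the second series and 2 (0.00888%) in the first, where 809 had an unadjusted p under 0.05. Of the 546 calls of the second series, 317 had the same sign in the first and 29 of these had an unadjusted p under 0.05 there. The changes of the 22515 probes correlated at 0.0244 between series, across probes that share libraries within a series. The count of differing probes was 13 without wild-type array 2, 60 without wild-type array 3, 15 without wild-type array 5 and 44 without AtrxΔE2 array 6.

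The called differences included markers of neighbouring tissue. Slc17a6 changed by -0.02 (SE 0.200) in the first series and by -2.10 in the second (difference -2.08, SE 0.264, adjusted p = 0.00907). Rora had 0.20 and -0.84 (adjusted p of the difference 0.00693) and Zic2 0.05 and -0.91 (0.0460). Cldn2 had 0.01 and 0.60 (0.00693), Kl -0.08 and 0.59 (0.00907), and Rsph9 -0.04 and 0.61 (0.0277). Rsph9 stands in neither marker list. All 6 genes had changes between -0.08 and 0.20 in the first series.

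The other called differences named here were of Tmie, Abca4, Iyd and Krt28. Tmie, needed for mechanotransduction in hair cells, measured 6.93 to 7.07 in wild-type mice and 6.28 to 6.41 in AtrxΔE2 mice of the second series, and its changes were -0.03 in the first and -0.72 in the second series (adjusted p of the difference 0.00692). Abca4, a retinoid transporter gene, had 0.01 and 0.45 (0.00420), Iyd 0.03 and -0.32 (0.00692), and the keratin gene Krt28 -0.02 and 0.42 (0.00794). A second Krt28 probe had a change of -0.05 (adjusted p = 0.286) on arrays 4 to 7.

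Atrx, Atp7a, both Xlr genes that rose and several of the largest changes had the same sign in both series, with no called difference. In the first series Xlr3b changed by 0.71 (SE 0.268), Xlr4b by 0.17 (SE 0.0515), Atp7a by -0.34 (SE 0.0323) and Atrx by -0.53 (SE 0.0917). Cap1 changed by 0.88 (SE 0.509), Spry2 by -0.59 (SE 0.313), Plin3 by 0.43 (SE 0.0780), Penk by 0.53 (SE 0.293) and Etnppl by -0.51 (SE 0.133). The adjusted p of the difference was 0.562 or more for each of these 9 genes. Glul (first series 0.02, SE 0.422), Calb2 (0.08, SE 0.699) and Cbln1 (-0.03, SE 0.277) were near 0 in the first series with wide errors, and their differences were not called (adjusted p = 0.284, 0.576 and 0.251). The signs are of different mice and arrays, and a p that misses the threshold does not show that the changes were alike.

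**Figure D5:**
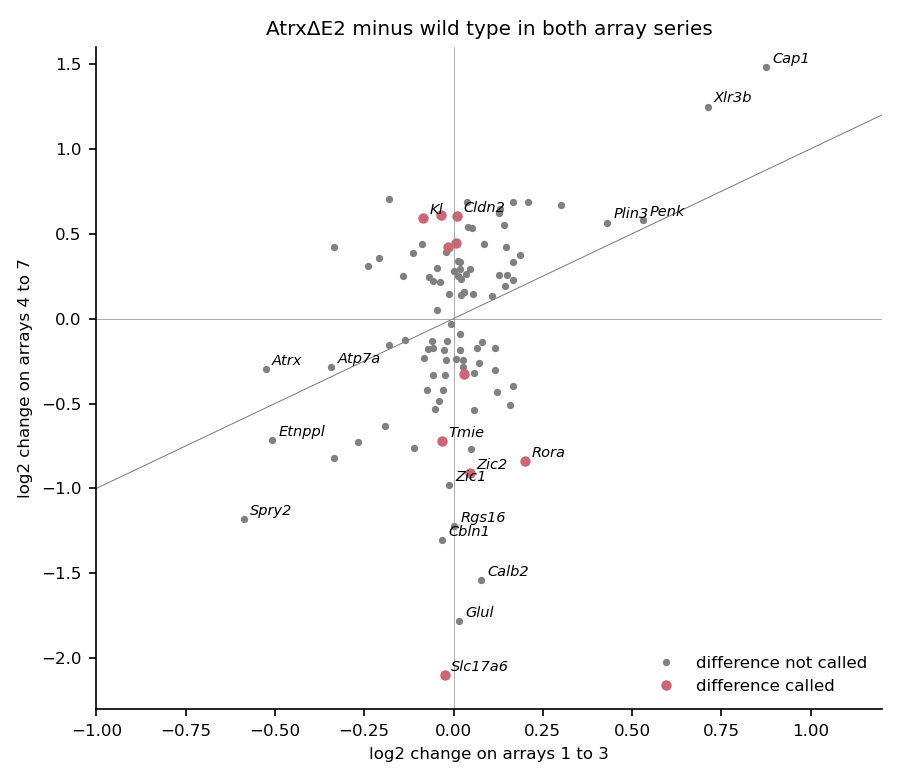
Log2 change of each named gene on arrays 1 to 3 (x axis) and arrays 4 to 7 (y axis), from the fit over 14 arrays; red points had a called difference between the series, and the diagonal marks equal changes. Xlr3b, Cap1, Plin3, Penk, Atp7a, Etnppl and Spry2 lie in the quadrants of equal sign, and Slc17a6, Rora, Zic2, Tmie, Cldn2 and Kl carry the called difference.

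Levels of several marker lists differed between the array series. For choroid plexus, striatal and myelin genes they did so in both genotypes, and for thalamic and septal markers in wild-type mice alone, since the AtrxΔE2 ranges overlapped. On the scale of the 14 arrays, the thalamic and septal list averaged 6.67 to 6.88 in wild-type and 6.68 to 6.87 in AtrxΔE2 mice of the first series, 7.42 to 7.50 in wild-type mice of the second and 6.73 to 7.05 in AtrxΔE2 mice of the second. The wild-type mice of the second series were thus the high group for these markers. The choroid plexus list averaged 6.51 to 6.69 in all mice of the first series, 8.53 to 8.61 in wild-type and 8.87 to 8.94 in AtrxΔE2 mice of the second. Striatal markers averaged 6.88 to 7.27 in the first series, and 8.04 to 8.11 in wild-type and 8.25 to 8.48 in AtrxΔE2 mice of the second. Myelin genes averaged 8.58 to 9.23 in the first and 10.19 to 10.40 in the second series. The part of tissue composition in the genotype changes was not tested.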

How the data were processed

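Total RNA of hippocampus was amplified, coupled to a Cy dye and hybridised to single-colour arrays, per the labels' protocols. The deposited intensity of each spot is a median at 635 nm, joined over 3 scanner gains by least squares, per the file headers. The authors also deposited a normalized intensity table on a linear scale with a median of 25 on every array; how it was made is not given in the sources used here, and its log2(value + 1) was an alternative. Ratios quoted from it are ratios of group means.

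Intensities were corrected with normexp (offset 50, all spots), which compresses changes of dim probes, logged, averaged per probe and quantile normalized over the 8 arrays. limma 3.58.1 in R 4.3.3 fitted wild-type and AtrxΔE2 groups with no covariate; unusable spots, between 7 and 11 per array, were dropped, which touched 62 tested probes. Differences between array series came from an interaction over 14 arrays normalized together. On simulated data the fit recovered 61.2%, 94.0% and 100% of log2 changes of 0.25, 0.5 and 1, with 11 unchanged probes called. How often the fit errs on the measured arrays, where neighbouring AtrxΔE2 arrays deviated together, was not tested.

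Gene symbols came from the platform annotation, updated through RefSeq (GRCm38.p6): 12622 were current, 3947 were replaced through a synonym and 62 were not found, while 6842 probes were not listed. Gene and array order came from RefSeq and the array identifiers. A gene stood in a list with its tested probe of highest mean. Named were Atrx, measured Xlr genes, Atp7a, Camk2a, the 12 called rises and the 12 called falls of largest size, at most 4 called members per list (where under 2 were called, the 2 of smallest p could be named) and the 6 genes of smallest p for the series difference. The members, the 35 hand-written lists (892 genes) and the tests were chosen with earlier results of these data known.

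Same-numbered mice of both genotypes did not deviate together (correlations -0.139, 0.034, -0.114 and -0.089), so replicate numbers were not used as a block. Alternatives covered the samples in the fit, blocks, background correction, scaling, the filter on dim probes, the variance prior, array weights, the blank level, the threshold and leaving out arrays.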

Additional observations from a re-analysis of the deposited data

Results flagged for a closer look

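The genotype change differed between the array series by the interaction test for 10 named genes. As second minus first series on the log2 scale, the difference was -2.08 for Slc17a6, -1.04 for Rora, -0.96 for Zic2, -0.69 for Tmie and -0.35 for Iyd. It was 0.68 for Kl, 0.64 for Rsph9, 0.59 for Cldn2, 0.44 for Abca4 and 0.44 for Krt28. Of these, Slc17a6, Rora and Zic2 are thalamic and septal markers, and Kl and Cldn2 choroid plexus genes.

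In Abca4, AtrxΔE2 array 4 lay apart from the other AtrxΔE2 arrays of the second series, at 6.87 against 6.77 to 6.79. It was the 1 group flagged among the 138 groups of the named genes. The AtrxΔE2 group of Atrx, with 3 values, could not be checked. Chance flags about 1 group in 20. Abca4 was called in all 8 fits that left out 1 array.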

How the results depend on the processing

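The 546 calls became 282 with neighbouring arrays as a random block, 0 with each such pair averaged (limma, 2 against 2; 2561 probes at an unadjusted p under 0.05), and 64 with the replicate number as a block, whose numbers were not shown to pair mice. Median scaling gave 2550, array weights 829, the blank spot level as a covariate 11, and adjusted p thresholds of 0.01 and 0.1 gave 98 and 1405. Fits without 1 array gave 215 to 847. Chosen after seeing the data, leaving out wild-type arrays 4 and 5, wild-type 6 and 7, or AtrxΔE2 6 and 7 gave 58, 138 and 1447, and AtrxΔE2 4 and 5 gave 373. Of the 24 series differences, the number became 15 with the random block, 9 on the authors' table, 23 with the replicate number as a block, and 13 to 60 without 1 array. Fits that leave out or average arrays have smaller samples. The cause of the changed counts was not tested.

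Of 69 named genes, 61 were called and 33 of them in all 8 fits without 1 array. Over 1724 pairs of gene and setting, the direction and side of the threshold were kept in 1255, the call was lost in 453, gained in 8 and the sign turned in 8, all with the blank level as a covariate: Xlr5d 0.019, Inf2 -0.010, Rgs16 0.419, Ccdc136 0.182, Egr1 -0.229, Kcnq5 -0.007, Gpr6 -0.065 and Smc3 0.037. With that covariate the named genes still called were Kl (0.974, adjusted p = 0.0475), Cbln1 (-2.071, 0.0332) and Spry2 (-1.317, 0.0296). The blank level separated the genotypes without overlap. With averaged pairs no named gene was called. With the random block, Rdh5, Inf2, Hpca, Glul, Ccn3, Lefty1, Gabrg1, Nxph1, Gclm, S100b, Grp, Igfbp2, Sdhd, Penk, Gpr6 and Chac1 were not called. On the authors' table, Mgll, Pisd, Enpp2, Igfbp2, Gjb1, Kcnq5, Sdhd, Gpr6, Slc32a1, Lefty1, Gclm and Hsp90aa1 were not called. Dim probes such as Xlr5d are limited by their signal over the blank spots.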
